A study of Mus musculus with 6 samples.

Results

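The 35 genes described here mark macrophages and other immune cells. They were taken by name from the deposited table of 24959 genes, where all 35 were found. By role, 12 are genes of resident macrophages, 6 are pan-leukocyte genes, 12 are shared by several myeloid cells, 3 serve antigen presentation and 2 mark mast cells. The libraries are labelled as mouse dental epithelial cells at postnatal day 0. Of the 6, 3 were conditional Pkm knockouts (Pkm cKO), lacking a gene whose enzyme, pyruvate kinase M, acts late in glycolysis, and 3 were controls with the genotype label WT. The labels used here name no Cre driver, deleted exon, pooling of animals or sort of the cells. In bulk RNA more cells of a type and more RNA per cell cannot be told apart.

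Tissue macrophages are resident phagocytes that clear dead cells and debris. They depend on the receptor Csf1r and its ligand Csf1, and the transcription factor PU.1, encoded by Spi1, sets up their gene expression. They are the main source of C1q, the protein of 3 chains that starts the classical complement pathway. Osteoclasts, the bone-resorbing cells that open space for growing teeth in the jaw, arise from the same precursors and share many of these genes.

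Total counts were 30588350 to 39085792 in Pkm cKO and 38130829 to 39415700 in control libraries. Pkm itself, which checks the labels, stood at 309, 395 and 350.5 CPM (read counts scaled to library size by the TMM method) in Pkm cKO replicates 1 to 3, against 1281, 1185 and 1049 CPM in control replicates 1 to 3, and fell (log2 fold change -1.74, SE 0.159, edgeR adjusted p 0.0109). Dental epithelial transcripts were abundant in both groups, with a summed level of 10217 to 15861 CPM in Pkm cKO and 25045 to 40907 CPM in control libraries over 12 genes, and so were 14 genes of dental mesenchyme and fibroblasts, with 18622 to 39876 CPM in Pkm cKO and 19515 to 31214 CPM in control libraries. Of 15930 genes tested, edgeR's quasi-likelihood test called 55 higher (0.345%) and 33 lower (0.207%) in Pkm cKO libraries at an adjusted p under 0.05, or 57 higher and 18 lower with upper-quartile scaling. Leaving out any 1 of the controls left 0 genes called. Unadjusted p-values were then under 0.05 for 1532, 1766 and 2495 genes without control replicates 1, 2 and 3, so every adjusted p below rests on all 3 controls.

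Immune cell transcripts were rare and more abundant in the Pkm cKO libraries. Without Kit, which made up 22.8% to 42.1% of the members' reads, they took 0.0284%, 0.0174% and 0.0315% of all reads in Pkm cKO replicates 1 to 3, against 0.0116%, 0.0134% and 0.0124% in control replicates 1 to 3. The 2 groups did not overlap, and Pkm cKO replicate 2 was nearest to the controls. Of the 35 members, 33 had enough reads to be tested, and 2, Spi1 and C1qc, rose (edgeR, adjusted p under 0.05, against 0.345% of all tested genes). At an unadjusted p under 0.05, 17 were higher, against 9.57% of all tested genes, and 0 lower, against 7.9%. DESeq2 called 11 higher, against 4.32% of all tested genes, and 0 lower, against 2.7%. Limma-voom called 0 members, and of all tested genes 0% higher and 0.0126% lower. The log2 fold change was above 0 for 31 of the 33, against 50.8% of all tested genes, with a median of 1.02 against 0.01 over all tested genes, and above 1 for 17, against 7.46%. In 17 members every Pkm cKO library was above every control, against 11.2% of all tested genes, and in 0 below, against 12.2%. These counts only describe the members, since the genes were chosen with earlier results known. Of the 33 tested, 4 did not reach the filter's count minimum in all 3 controls and passed through their level in the Pkm cKO libraries (Cpa3, Cd52, Fcgr2b and H2-Aa). With every gene of at least 1 read tested, 33 of 35 members were above 0, with a median of 1.01. The plot of member levels by library shows the separation gene by gene.

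**Figure D1:**
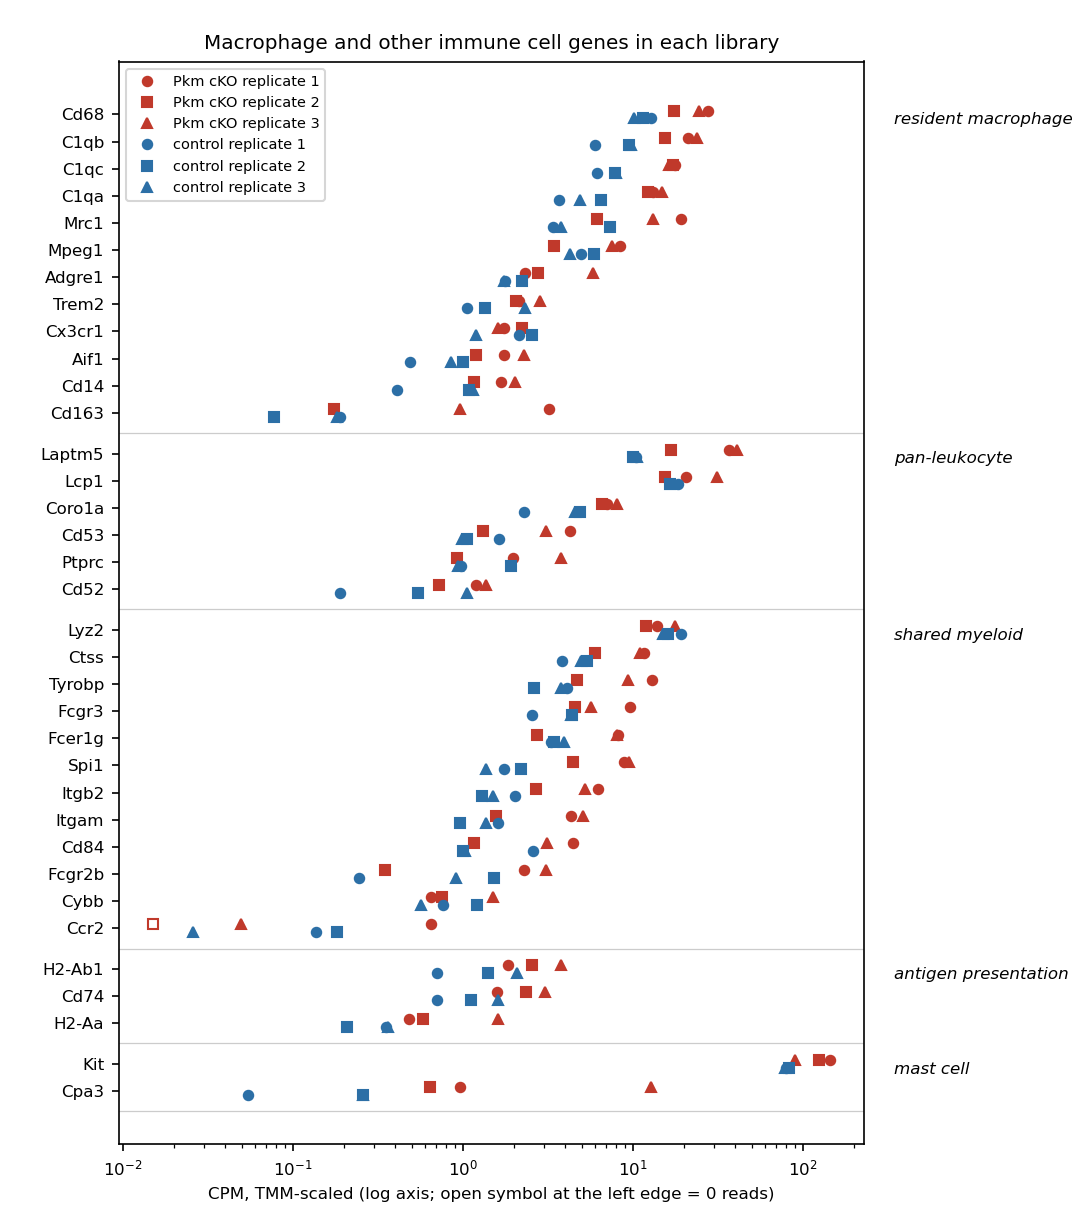
Level of each of the 35 members in each library, in TMM-scaled CPM on a log axis, grouped by role. Red symbols are Pkm cKO and blue symbols control libraries, with circles, squares and triangles for replicates 1, 2 and 3, and the open square marks 0 reads. Red symbols lie right of the blue ones without overlap for 17 of the 33 tested members, and the red square, Pkm cKO replicate 2, is most often the leftmost red symbol.

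The 3 genes of complement C1q were higher in every Pkm cKO library than in any control, and C1qc had the smallest spread of them. C1qa (NCBI gene 12259) stood at 13.1, 12.3 and 14.9 CPM in Pkm cKO libraries, against 3.68, 6.498 and 4.88 CPM in controls. C1qb (NCBI gene 12260) had 21.0, 15.5 and 24.0 CPM in Pkm cKO libraries, against 5.99, 9.45 and 9.78 CPM in controls. C1qc (NCBI gene 12262) had 17.8, 17.2 and 16.3 CPM in Pkm cKO libraries, against 6.15, 7.84 and 8.02 CPM in controls. C1qc was at nearly the same level in all 3 Pkm cKO libraries. It rose by 1.22 on the log2 scale (SE 0.214, edgeR adjusted p 0.0487). C1qa, at 1.42 (SE 0.271, adjusted p 0.0538), and C1qb, at 1.26 (SE 0.264, adjusted p 0.0699), did not pass. The adjusted p of C1qc was 0.283, 0.211 and 0.178 without control replicates 1, 2 and 3 and 0.055 without Pkm cKO replicate 2, and it ran from 7.9e-06 (DESeq2) to 0.283 over all alternatives.

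The other resident macrophage genes separated the groups in some cases and overlapped in others. Cd68, a glycoprotein of phagocyte lysosomes, stood at 27.8, 17.6 and 24.7 CPM in Pkm cKO libraries, against 12.8, 11.5 and 10.2 CPM in controls. These groups did not overlap either, but the log2 fold change of 1.02 (SE 0.227, edgeR adjusted p 0.0781) did not pass. Mrc1, the mannose receptor of tissue macrophages, had 19.2, 6.13 and 13.2 CPM in Pkm cKO libraries, against 3.40, 7.33 and 3.79 CPM in controls. Here Pkm cKO replicate 2 lay among the controls. Cd163, the scavenger receptor for hemoglobin, was too low to test, with 100, 6 and 39 reads in Pkm cKO libraries, against 7, 3 and 7 reads in controls. Most of its reads came from Pkm cKO replicate 1. Adgre1, which encodes the macrophage surface protein F4/80, Aif1, a cytoskeletal protein of macrophages, and Cd14, a co-receptor for bacterial lipopolysaccharide, had log2 fold changes of 0.93, 1.14 and 0.88 with groups that did not overlap, and did not pass. The perforin-like gene Mpeg1 (0.35), the lipid receptor gene Trem2 (0.57) and the fractalkine receptor gene Cx3cr1 (-0.07) had groups that overlapped. Cx3cr1 had 1.74, 2.24 and 1.61 CPM in Pkm cKO libraries, against 2.15, 2.54 and 1.19 CPM in controls, so it did not share the higher level of the C1q genes.

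The promoters of 5 members are shown: the called gene C1qc, its neighbour C1qb, Laptm5, Mrc1 and Lyz2. Laptm5 and Mrc1 had large fold changes that did not pass, with overlapping groups for Mrc1, and the Lyz2 level was not higher. These 5 were chosen after the values were seen. The sequences are from RefSeq (build GRCm38.p6, whereas the reads were aligned to mm39) and hold the 250 bases before each gene's start, 5′ to 3′ on the gene's strand. Capitals mark the letters GAGGAA, the core bound by PU.1, or TTCCTC, the same letters on the other strand.
C1qb: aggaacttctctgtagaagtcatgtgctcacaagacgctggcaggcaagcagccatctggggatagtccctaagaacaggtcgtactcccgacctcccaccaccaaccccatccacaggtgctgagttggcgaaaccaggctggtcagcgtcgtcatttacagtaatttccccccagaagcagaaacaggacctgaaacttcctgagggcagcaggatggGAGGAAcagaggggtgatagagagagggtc
C1qc: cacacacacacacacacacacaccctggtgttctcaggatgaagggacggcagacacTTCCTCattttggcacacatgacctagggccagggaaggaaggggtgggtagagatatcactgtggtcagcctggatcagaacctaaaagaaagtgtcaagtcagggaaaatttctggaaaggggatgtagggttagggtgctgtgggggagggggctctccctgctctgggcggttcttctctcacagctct
Laptm5: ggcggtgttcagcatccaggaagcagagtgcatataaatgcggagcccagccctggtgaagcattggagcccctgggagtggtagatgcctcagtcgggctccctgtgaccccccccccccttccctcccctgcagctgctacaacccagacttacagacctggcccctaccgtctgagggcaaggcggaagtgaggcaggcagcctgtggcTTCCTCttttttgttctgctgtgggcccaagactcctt
Mrc1: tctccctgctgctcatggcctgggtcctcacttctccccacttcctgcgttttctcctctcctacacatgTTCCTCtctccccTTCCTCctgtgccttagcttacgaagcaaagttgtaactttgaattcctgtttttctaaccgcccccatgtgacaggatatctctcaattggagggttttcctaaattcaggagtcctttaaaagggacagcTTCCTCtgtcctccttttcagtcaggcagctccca
Lyz2: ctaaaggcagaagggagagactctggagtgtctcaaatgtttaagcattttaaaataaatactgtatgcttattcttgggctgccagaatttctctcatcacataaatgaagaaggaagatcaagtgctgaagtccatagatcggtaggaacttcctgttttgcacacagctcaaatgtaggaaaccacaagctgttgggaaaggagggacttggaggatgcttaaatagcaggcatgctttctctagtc
C1qb lies at chr4:136886201-136886450 on the reverse strand. C1qc lies at chr4:136892915-136893164 on the reverse strand. Laptm5 lies at chr4:130913066-130913315 on the forward strand. Mrc1 lies at chr2:14229164-14229413 on the forward strand. Lyz2 lies at chr10:117282273-117282522 on the reverse strand.

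C1qb held the letters once, starting 30 bases before its start, C1qc once at 193 bases, and Laptm5 once at 38 bases. Mrc1 held them 3 times, at 35, 167 and 180 bases, and the Lyz2 window did not hold them. Of the 35 members, 26 had an entry in the promoter table, and C1qa, Adgre1, Cd14, Cd52, Spi1, Tyrobp, Itgb2, Cd74 and H2-Ab1 did not. Searched on both strands in the full window of 300 bases (250 before to 50 after the start), GAGGAA was present for 15 of the 26 members (57.7%) and for 31.3% of 27025 genes. The longer form GAGGAAGT, which contains it, was present for 3 members (11.5%: C1qc, Cd53 and Ctss) and 3.69% of genes. The composite element of PU.1 with an interferon regulatory factor was present for 3 members (Cd68, Cybb and Fcgr2b) and 3.16% of genes, and GATTGG, the Y box letters of MHC class II promoters, for 5 (19.2%, H2-Aa among them) and 18.2% of genes. Log2 fold changes of the members with GAGGAA ran from 0.20 (Cybb) to 1.61 (Laptm5). Those of the tested members with an entry but without GAGGAA ran from -0.21 (Lyz2) to 4.62 (Cpa3). Cpa3 passed the filter through its level in Pkm cKO libraries. Whether matches go with the fold changes was not tested. A match describes the letters and is not evidence of binding.

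Among the myeloid genes, Spi1, which encodes PU.1, rose and had the highest log2 fold change of the members other than Cpa3. It stood at 8.88, 4.45 and 9.53 CPM in Pkm cKO libraries, against 1.74, 2.20 and 1.38 CPM in controls. The group means were 7.62 ± 2.77 CPM in Pkm cKO and 1.77 ± 0.414 CPM in control libraries (SD, n = 3 each). Its log2 fold change was 2.10 (SE 0.384, edgeR adjusted p 0.0496). All 3 Pkm cKO libraries lay above all 3 controls. The adjusted p was 0.268, 0.209 and 0.191 without control replicates 1, 2 and 3 and 0.0631 without Pkm cKO replicate 3, within a range of 7.81e-06 (DESeq2) to 0.268 over all alternatives.

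Tyrobp, Itgb2 and Ctss were also higher in every Pkm cKO library than in any control, with Pkm cKO replicate 2 the lowest of its group. Tyrobp, the adaptor that passes on signals from Trem2 and related receptors, stood at 13.02, 4.71 and 9.39 CPM in Pkm cKO libraries, against 4.08, 2.61 and 3.79 CPM in controls. Itgb2, the beta chain of the leukocyte integrins, had 6.27, 2.70 and 5.26 CPM in Pkm cKO libraries, against 2.04, 1.29 and 1.505 CPM in controls. Neither overlapped between the groups, with log2 fold changes of 1.37 (SE 0.388, edgeR adjusted p 0.123) and 1.55 (SE 0.413, adjusted p 0.109), and neither passed. Ctss, a lysosomal cysteine protease, had 11.6, 5.99 and 11.02 CPM in Pkm cKO libraries, against 3.81, 5.36 and 4.93 CPM in controls, and did not pass (log2 fold change 1.02). The integrin chain Itgam (1.49), the Fc receptor genes Fcgr3 (0.82) and Fcgr2b (1.10), their adaptor Fcer1g (0.82), the adhesion receptor gene Cd84 (0.91) and the oxidase subunit gene Cybb (0.20) did not pass, and of these only Fcgr3 had groups that did not overlap. Fcgr3 and Fcgr2b are related copies, so reads they share may have been divided or left out. Ccr2, the chemokine receptor of blood monocytes, was too low to test: it had 20, 0 and 2 reads in Pkm cKO libraries, against 5, 7 and 1 reads in controls. The 0 in Pkm cKO replicate 2 allows up to 0.0872 CPM by counting error.

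Lyz2, the lysozyme of macrophages and neutrophils, went with none of these. It stood at 13.8, 12.003 and 17.6 CPM in Pkm cKO libraries, against 19.2, 16.2 and 14.996 CPM in controls. The groups overlapped and the log2 fold change was -0.21 (SE 0.220, edgeR adjusted p 0.657). Its close copy Lyz1 had at most 1 read in a library, so the reads counted for these copies fell to Lyz2, and reads that match both may have been left out.

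The 6 pan-leukocyte genes, found in most white blood cells, were all above 0. Laptm5, a lysosomal membrane protein of blood cells, stood at 36.8, 16.9 and 41.0 CPM in Pkm cKO libraries, against 10.4, 9.99 and 10.5 CPM in controls. The SD was 12.9 CPM in Pkm cKO and 0.286 CPM in control libraries, without overlap. The log2 fold change of 1.61 (SE 0.305, edgeR adjusted p 0.0538) did not pass. Coro1a, an actin-binding protein, had 7.07, 6.60 and 8.04 CPM in Pkm cKO libraries, against 2.29, 4.89 and 4.57 CPM in controls, again without overlap (log2 fold change 0.89, adjusted p 0.223). Lcp1, which bundles actin, had 20.7, 15.5 and 31.4 CPM in Pkm cKO libraries, against 18.4, 16.5 and 16.9 CPM in controls, and overlapped (0.38, adjusted p 0.483). Ptprc, which encodes the common leukocyte antigen CD45, had only 32 to 153 reads in Pkm cKO and 36 to 74 reads in control libraries, and overlapped between the groups (log2 fold change 0.81, SE 0.562). Cd53 (1.24) and Cd52 (0.87) did not pass either.

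The genes of antigen presentation were low. Cd74, the invariant chain that guides MHC class II molecules, stood at 1.58, 2.35 and 3.05 CPM in Pkm cKO libraries, against 0.708, 1.11 and 1.61 CPM in controls. H2-Ab1, a class II beta chain, had 1.84, 2.56 and 3.77 CPM in Pkm cKO libraries, against 0.708, 1.40 and 2.08 CPM in controls. H2-Aa, the alpha chain, had 0.485, 0.581 and 1.61 CPM in Pkm cKO libraries, against 0.354, 0.207 and 0.363 CPM in controls. In these 3 genes Pkm cKO replicate 1 was the lowest of its group, as in Cybb and the resident macrophage gene Adgre1 but unlike in Spi1 and the C1q genes. Their log2 fold changes of 1.03, 0.97 and 1.54 did not pass (edgeR adjusted p 0.287, 0.339 and 0.25), and H2-Aa alone had groups that did not overlap.

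**Figure D2:**
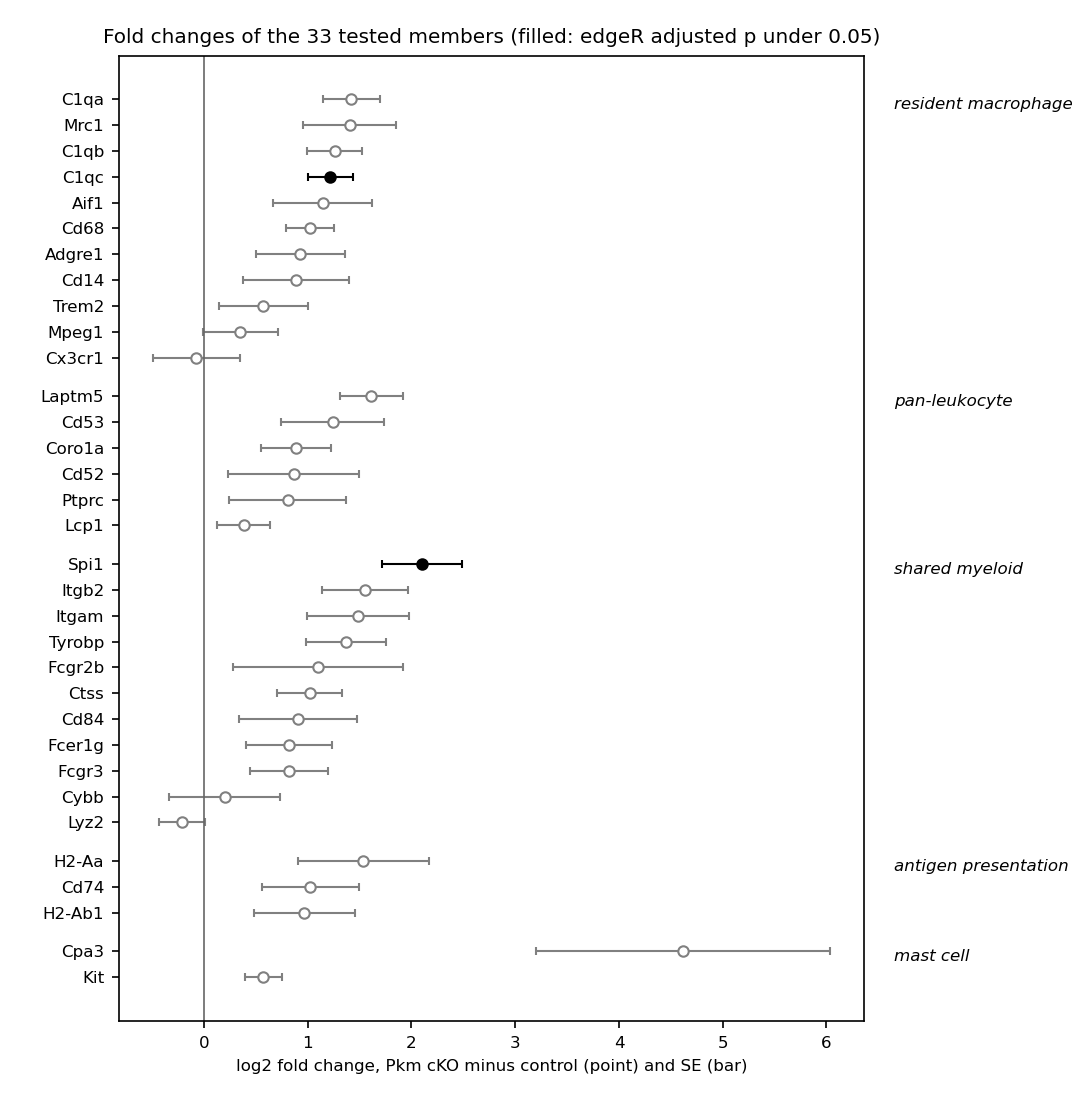
Log2 fold change, Pkm cKO minus control, of the 33 tested members (points) with its standard error (bars), grouped by role and sorted within a role. Filled points mark Spi1 and C1qc, the 2 members with an edgeR adjusted p under 0.05, and only Cx3cr1 and Lyz2 lie below 0.

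The 2 mast cell members differed in level and in pattern. Kit, the receptor for stem cell factor on mast cells, melanocytes and other cell types, was the most abundant member in CPM, with 145, 124 and 90.1 CPM in Pkm cKO libraries, against 79.3, 83.4 and 78.5 CPM in controls. The groups did not overlap, and the log2 fold change of 0.57 (SE 0.182, edgeR adjusted p 0.154) did not pass. Cpa3, the carboxypeptidase of mast cell granules, had 30, 22 and 513 reads in Pkm cKO libraries, against 2, 10 and 10 reads in controls. Pkm cKO replicate 3 thus had the most Cpa3 and the least Kit of its group. The log2 fold change of Cpa3 was 4.62 (SE 1.42, adjusted p 0.185) and 2.06 without Pkm cKO replicate 3 (adjusted p 0.187, within 0.0662 to 0.566 over the alternatives).

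Other mast cell genes stood out in the same library. Of 12 listed, 10 were in the table and 6 were tested. Of these 6, 5 did not reach the filter's minimum in all 3 controls and passed it through their level in Pkm cKO libraries, so their directions are not counted here. No mast cell gene was called by edgeR or limma-voom. By edgeR 4 were higher at an unadjusted p under 0.05, against 9.57% of all tested genes. These 4 (Mcpt4, Cma1, Tpsb2 and Hdc) are all among the 5 that passed the filter through Pkm cKO libraries. DESeq2 called 3 higher, against 4.32%. Since the filter favoured genes high in Pkm cKO libraries, these counts only describe the genes. Cma1, the mast cell chymase, stood at 2.20, 1.40 and 12.2 CPM in Pkm cKO libraries, against 0.0545, 0.311 and 0.182 CPM in controls. Tpsb2, a mast cell tryptase, had 3.10, 1.98 and 22.4 CPM in Pkm cKO libraries, against 0.163, 1.29 and 0.311 CPM in controls, and Hdc, the histamine-forming enzyme, 1.91, 0.814 and 6.43 CPM in Pkm cKO libraries, against 0.327, 0.285 and 0.130 CPM in controls. The high-affinity IgE receptor genes Fcer1a and Ms4a2 had at most 1 read in a library. The mast cell receptor genes Mrgprb1 and Mrgprb2 were also too low to test. Genes of melanocytes, which also carry Kit, were not higher as a list. Their summed level was 11.4 to 19.9 CPM in Pkm cKO and 18.9 to 40.9 CPM in control libraries over 7 genes. Most of it came from Mitf, with 15.1, 13.95 and 7.201 CPM in Pkm cKO libraries, against 19.03, 37.3 and 14.1 CPM in controls. The sum therefore mainly follows this gene. Of the 4 tested genes, 3 were below 0. Of these 4, edgeR and limma-voom called 0 and DESeq2 1 higher, against 4.32% of all tested genes. At an unadjusted p under 0.05, 1 was higher, against 9.57%, and 1, Mitf, lower, against 7.9%. The gene higher at an unadjusted p was Sox10, with 27, 10 and 71 reads in Pkm cKO libraries, against 0, 4 and 2 in controls. Sox10 did not reach the filter's minimum in all 3 controls and passed it through its level in Pkm cKO libraries.

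Resident macrophage genes and the other leukocyte genes had nearly the same median fold change. The median log2 fold change was 1.02 over the 11 tested resident macrophage members and 0.99 over the 22 other tested members, a difference of 0.03 that ran from -0.04 to 0.12 over the alternatives. Groups did not overlap for 7 of the 11 resident members and 10 of the 22 others, against 11.2% of all tested genes. The 2 classes are unlike here, since Cpa3, Cd52, Fcgr2b and H2-Aa, which passed the filter through Pkm cKO libraries, are all among the others. Cpa3 and H2-Aa are among those 10, whereas all 11 resident members reached the minimum in all 3 controls. By edgeR, 1 resident member (C1qc) and 1 other (Spi1) were called, against 0.345% of all tested genes. DESeq2 called 5 resident and 6 other members, against 4.32%, and limma-voom 0. Summed, the 12 resident genes held 120.2, 81.7 and 116 CPM in Pkm cKO libraries, against 43.1, 56.8 and 48.4 CPM in controls. The other members without Kit and Cpa3 held 159.6, 88.4 and 177 CPM in Pkm cKO libraries, against 77.8, 78.1 and 77.8 CPM in controls. In Pkm cKO replicate 2 the resident sum was well above the controls while the other sum was near them. C1qa, C1qb and C1qc held 12.3, 15.5 and 17.2 CPM of that resident sum. In the same library Mrc1 lay among the controls and Mpeg1 below every control, so the higher sum was not shared by all resident genes. The ratio of the resident sum to the other sum was 0.753, 0.924 and 0.657 in Pkm cKO libraries, against 0.554, 0.727 and 0.622 in controls, and these ranges overlapped. As a difference of median log2 CPM, tested resident minus other tested members stood at 0.668, 0.376 and 0.451 in Pkm cKO libraries. In controls this difference was 0.833, 1.75 and 1.25, so it was lower in every Pkm cKO library, without overlap. The median of the others includes Cpa3, Cd52, Fcgr2b and H2-Aa, which passed the filter through Pkm cKO libraries. The median log2 fold changes of the 2 classes, by contrast, were nearly the same. This difference of medians has no test.

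The Pkm cKO libraries differed among themselves in the level of most members. Relative to the control mean, the median fold of the 33 tested members was 2.28 in Pkm cKO replicate 1, 1.32 in replicate 2 and 2.53 in replicate 3. Replicate 2 was the lowest of the 3 for 25 members and the highest for 1, Cx3cr1. C1qc was 2.43, 2.34 and 2.22 times the control mean in replicates 1, 2 and 3 and C1qa 2.62, 2.44 and 2.97 times. Laptm5 was 3.57, 1.63 and 3.97 times and Tyrobp 3.72, 1.35 and 2.69 times the control mean. C1qa and C1qc were thus nearly as high in replicate 2 as in the others, where most others were closer to the controls. Without Pkm cKO replicate 2, 27 of the 33 members had groups apart, against 16.4% of all tested genes. The number was 17 to 21 without any other single library, against 13.3% to 19.3% of all tested genes.

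**Figure D3:**
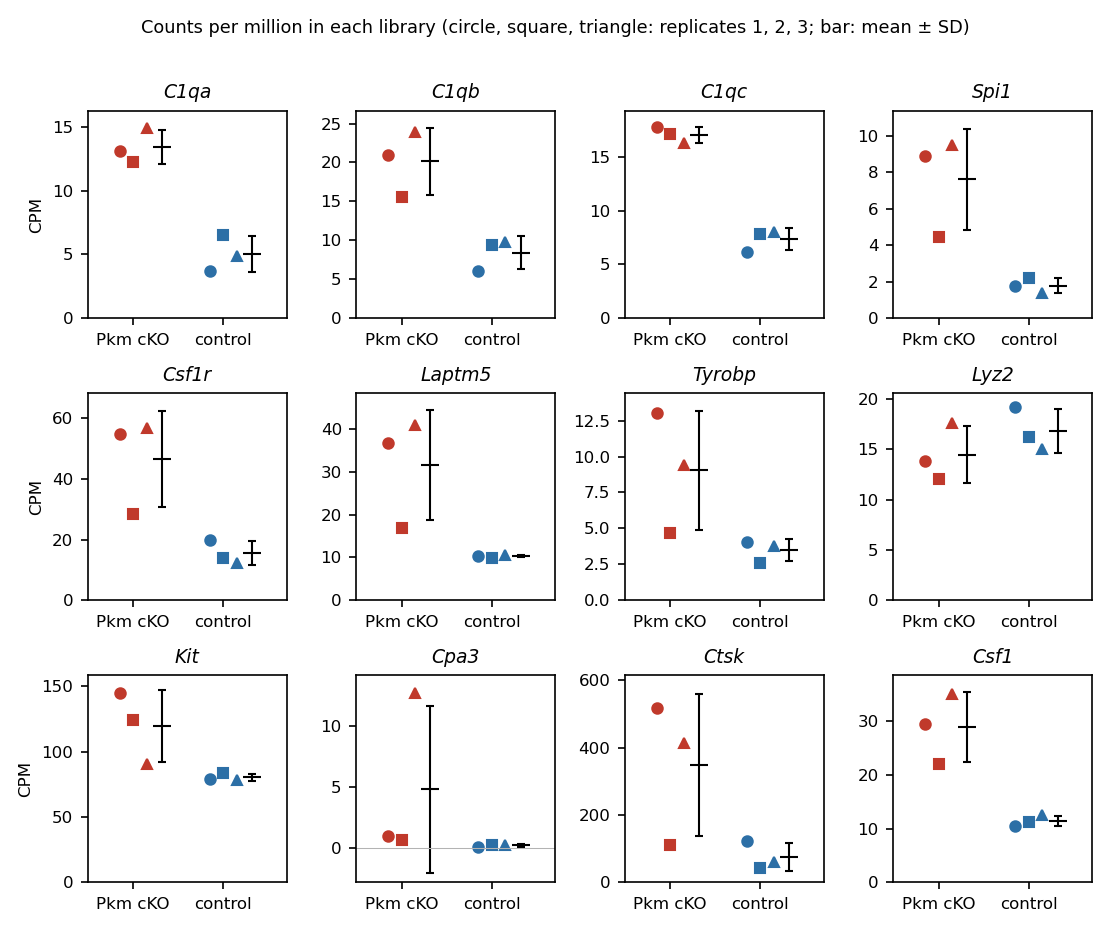
CPM of 12 genes in each library, Pkm cKO (red) left of control (blue), with circles, squares and triangles for replicates 1, 2 and 3 and bars for the mean and SD of 3 libraries. C1qc is at 16.3 to 17.8 CPM in all 3 Pkm cKO libraries, whereas Laptm5, Tyrobp, Csf1r and the osteoclast gene Ctsk are lowest in Pkm cKO replicate 2, Cpa3 is high in replicate 3 and Lyz2 overlaps.

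To follow members within the immune transcripts, each CPM was divided by the summed CPM of the 6 pan-leukocyte genes, which was 72.0, 41.9 and 88.7 in Pkm cKO libraries, against 33.9, 34.95 and 34.97 in controls. Spi1 relative to this sum was 0.123, 0.106 and 0.108 in Pkm cKO libraries, against 0.0514, 0.0630 and 0.0393 in controls, so it differed by more than the pan-leukocyte genes. Lyz2 had a relative level of 0.191, 0.286 and 0.199 in Pkm cKO libraries, against 0.567, 0.463 and 0.429 in controls. Both were without overlap, in opposite directions. The relative level of C1qc, at 0.247, 0.410 and 0.184 in Pkm cKO libraries, against 0.182, 0.224 and 0.229 in controls, overlapped, as did C1qb, Cd68, Mrc1 and Tyrobp. Within the sum itself, Laptm5 made up 0.402 to 0.511 of it in Pkm cKO and 0.286 to 0.308 in control libraries, and Lcp1 0.287 to 0.370 in Pkm cKO and 0.473 to 0.542 in control libraries. These ratios have no test.

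**Figure D4:**
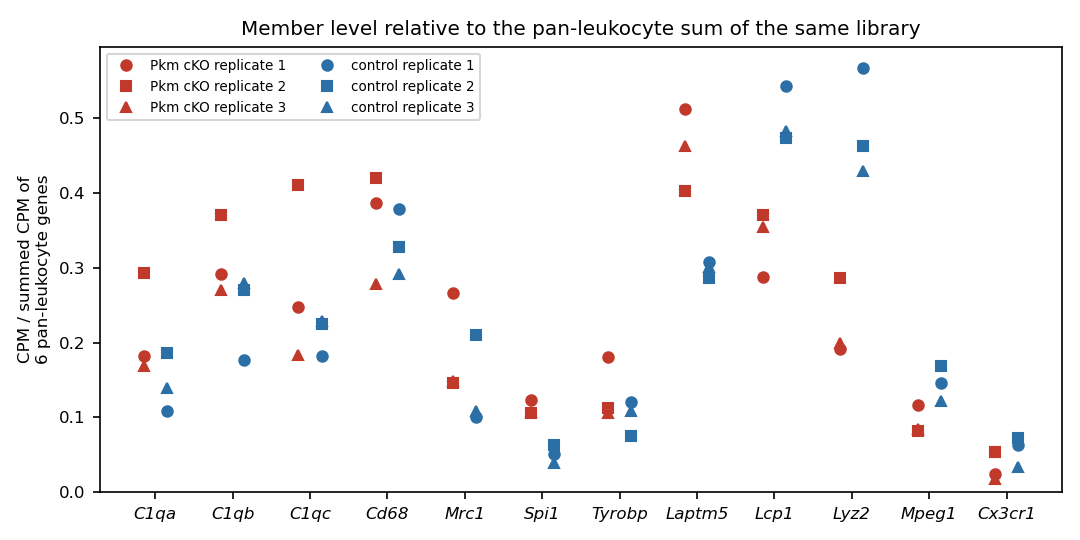
CPM of 12 members divided by the summed CPM of the 6 pan-leukocyte genes of the same library, Pkm cKO in red left of control in blue, with circles, squares and triangles for replicates 1, 2 and 3. Spi1 and Laptm5 are higher and Lcp1 and Lyz2 lower in Pkm cKO than in control libraries without overlap, and C1qc overlaps.

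Levels of different genes were compared per kilobase of merged exons, with lengths from GENCODE M21 (GRCm38), which need not match the authors' annotation. In controls the mean CPM per kilobase was highest for Lyz2 (12.8), then Cd68 (9.15), Kit (9.02) and C1qb (7.73). In Pkm cKO libraries it was highest for Cd68 (18.6) and C1qb (18.5), then Tyrobp (13.5), Kit (13.4) and C1qa (12.9), with Lyz2 (10.999) in 6th place. Cd68 and C1qb did not differ beyond their spread in Pkm cKO libraries, with 13.99 to 22.2 CPM per kilobase for Cd68 and 14.3 to 22.0 for C1qb. Ccr2 was the lowest in both groups.

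Further genes of tissue macrophages, growth factors and complement were read from lists of genes that are not members. Csf1r, the receptor that macrophages need to survive, stood at 54.8, 28.5 and 56.8 CPM in Pkm cKO libraries, against 19.9, 14.01 and 12.4 CPM in controls, with no overlap (log2 fold change 1.595, SE 0.291, edgeR adjusted p 0.0525, not past the threshold). Its ligand gene Csf1, made mostly by cells other than macrophages, rose. It had 29.4, 22.0 and 35.04 CPM in Pkm cKO libraries, against 10.5, 11.3 and 12.5 CPM in controls (log2 fold change 1.34, SE 0.220, adjusted p 0.0444). Of 25 further macrophage genes, 23 were in the table and 17 tested, 13 above 0 (against 50.8% of all tested genes) and 4 below. Of these 17, edgeR called 0. At an unadjusted p under 0.05, 9 were higher, against 9.57% of all tested genes, and 0 lower, against 7.9%. DESeq2 called 6 higher, against 4.32%, and limma-voom 0. Folr2 and P2ry12, among the 17, did not reach the filter's minimum in every control. Lyve1, a hyaluronan receptor of perivascular macrophages and lymphatic vessels, had 1.32, 0.988 and 4.82 CPM in Pkm cKO libraries, against 0.272, 0.440 and 0.311 CPM in controls, with an adjusted p of 0.0889. The transcription factor gene Maf, abundant in both groups, had a log2 fold change of -0.50 and did not pass. Of 7 tested genes for growth factors and chemokines, 2 rose, against 0.345% of all tested genes. They were Csf1 and the stromal chemokine gene Cxcl12. Cxcl12 had 51.9, 26.9 and 77.7 CPM in Pkm cKO libraries, against 12.8, 11.5 and 12.2 CPM in controls (log2 fold change 2.10, SE 0.340, edgeR adjusted p 0.0481).

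The complement genes outside C1q, many of them made by stromal cells, were all above 0 (12 of 12 tested, median log2 fold change 1.29), although Cfb and Masp1 did not reach the filter's minimum in all 3 controls. By edgeR 1 was called, against 0.345% of all tested genes higher, with 6 at an unadjusted p under 0.05, against 9.57%. DESeq2 called 5, against 4.32%, and limma-voom 0. C1ra, a protease that joins C1q in the C1 complex, rose and had 17.3, 10.0 and 20.4 CPM in Pkm cKO libraries, against 2.97, 5.31 and 4.64 CPM in controls (log2 fold change 1.885, SE 0.331, edgeR adjusted p 0.0487). Its partner C1s1 had 14.4, 11.5 and 27.8 CPM in Pkm cKO libraries, against 4.85, 6.89 and 6.62 CPM in controls, and did not pass (adjusted p 0.0765). Both separated the groups fully, like the C1q genes. The inhibitor gene Serping1 (1.35) and C4b (2.29) separated them too and did not pass.

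Lists of immune activation and antigen presentation held few calls by any tool. Over all tested genes, edgeR called 0.345% and DESeq2 4.32% higher, and 9.57% were higher at an unadjusted edgeR p under 0.05. Of 18 genes of Fc receptor and adaptor signalling, 14 were tested, 10 above 0 and 4 below, with 0 called by edgeR or limma-voom and 1 higher by DESeq2, and 2 at an unadjusted p under 0.05. The phosphatase gene Inpp5d had a log2 fold change of 0.81 and the kinase genes Btk and Lyn 1.84 and 0.48. Of the 14, 2 did not reach the filter's minimum in all 3 controls, Btk among them. Interferon-stimulated genes were above 0 for 9 of 12 tested, with a median of 0.37, 0 called by edgeR or limma-voom and 1 by DESeq2. At an unadjusted p under 0.05 there was 1, Ifit3 (2.33, edgeR adjusted p 0.0997). Of the 12, 4 did not reach the filter's minimum in all 3 controls, Ifit3 among them. Of the inflammatory list 4 of 10 genes were tested and 0 called by edgeR, DESeq2 or limma-voom, with 0 at an unadjusted p under 0.05. The cytokine genes Il1b, Tnf and Il6, named after their values were seen, had 1 to 10, 0 to 10 and 0 to 5 reads over the 6 libraries. Of 8 tested MHC class I genes all were above 0 (median 0.41) and 0 were called by edgeR or limma-voom and 1 by DESeq2, with 2 at an unadjusted p under 0.05. Of 3 tested further class II genes, 0 were called by any of these tools and 1 had an unadjusted p under 0.05: H2-Eb1, with 0.808, 1.74 and 2.83 CPM in Pkm cKO libraries, against 0.300, 0.673 and 0.675 CPM in controls.

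Markers of other white blood cells were sparse. Summed over 11 neutrophil genes, the level was 5.75 to 15.8 CPM in Pkm cKO and 3.68 to 7.39 CPM in control libraries, and these overlapped. The neutrophil gene Ly6g had at most 1 read in a library. The 9 T and NK cell genes summed to 2.29 to 5.49 CPM in Pkm cKO and 1.96 to 2.87 CPM in control libraries, and Cd3e had at most 1 read. The 6 B cell genes summed to 6.74 to 22.97 CPM in Pkm cKO and 5.58 to 7.16 CPM in control libraries, mostly from Ebf1, which stromal cells also express. The 8 dendritic and Langerhans cell genes summed to 4.30 to 6.89 CPM in Pkm cKO and 4.97 to 6.30 CPM in control libraries. Of the genes tested in these 4 lists, 0 were called by edgeR, DESeq2 or limma-voom. At an unadjusted p under 0.05, 1 neutrophil and 2 B cell genes were higher, while 3 of the 7 tested neutrophil and 2 of the 3 tested B cell genes did not reach the filter's minimum in all 3 controls. Of 7 tested red cell genes, 6 were below 0 and 1, Slc4a1, above (0.38, groups overlapping). By edgeR 3 of the 7 fell, against 0.207% of all tested genes. These were the globin genes Hbb-bt, Hbb-bs and Hba-a1, whose near-identical copies make their reads uncertain. DESeq2 called 5 lower, against 2.7%, and limma-voom 0. Hbb-bs stood at 160, 142 and 189 CPM in Pkm cKO libraries, against 321, 288 and 433 CPM in controls (log2 fold change -1.08, edgeR adjusted p 0.0487).

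Osteoclast genes had a far higher summed level than the white blood cell markers, and of the Pkm cKO libraries replicate 2 had the lowest sum. All 11 were tested and above 0, with a median log2 fold change of 2.06, although Dcstamp and Calcr did not reach the filter's minimum in all 3 controls. Of them, edgeR called 0, with 10 at an unadjusted p under 0.05, against 9.57% of all tested genes higher. DESeq2 called 8, against 4.32% higher, and limma-voom 0. Ctsk, the collagen-degrading protease of osteoclasts, stood at 518, 112 and 415 CPM in Pkm cKO libraries, against 122, 43.0 and 62.0 CPM in controls. Mmp9, a matrix protease, had 568, 187 and 557 CPM in Pkm cKO libraries, against 141, 55.6 and 85.4 CPM in controls. Dcstamp and Ocstamp, needed for osteoclast fusion, had log2 fold changes of 3.29 and 3.09 (edgeR adjusted p 0.0828 and 0.0765). Summed, the list held 1548, 443 and 1295 CPM in Pkm cKO libraries, against 389, 178 and 234 CPM in controls, so control replicate 1 was the highest of the controls. Osteoclasts also express Spi1, Csf1r, Tyrobp, Laptm5 and Cd68. The part of osteoclasts in the level of the shared members was not tested.

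**Figure D5:**
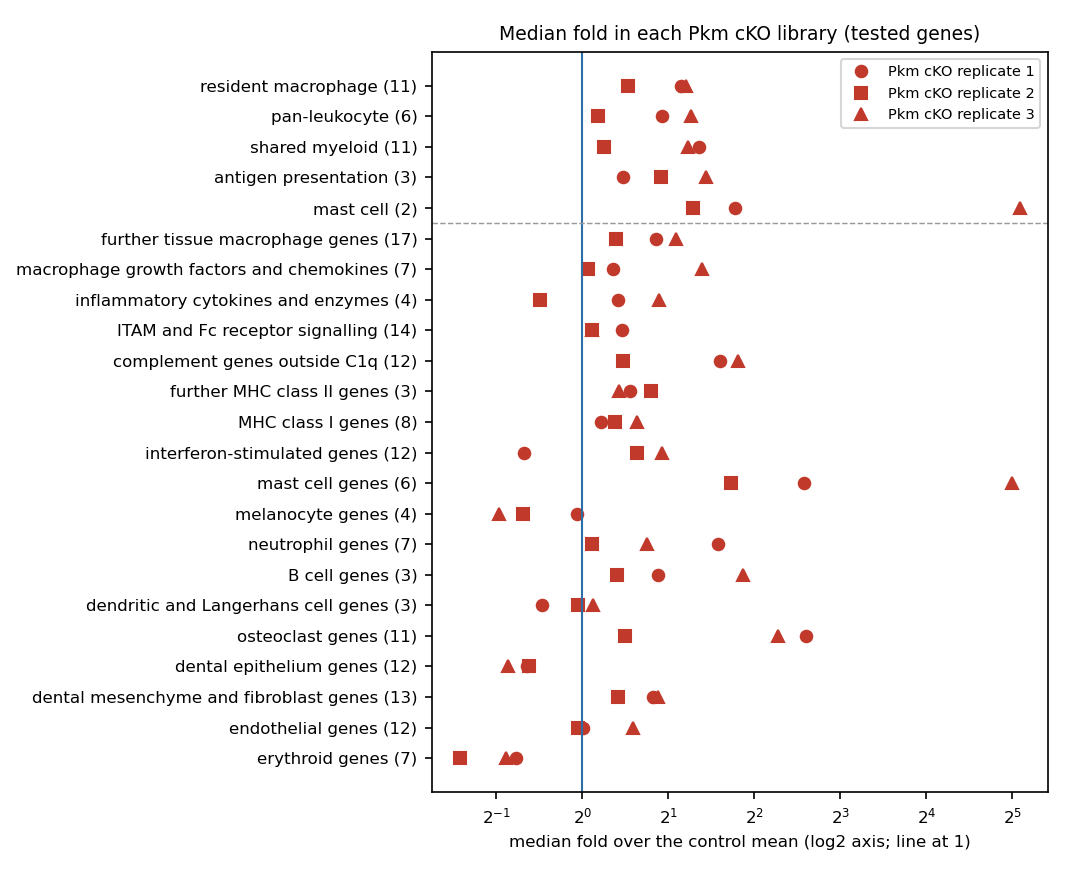
Median fold over the control mean of each gene group in Pkm cKO replicates 1 (circles), 2 (squares) and 3 (triangles), on a log2 axis with a line at 1, the number of tested genes in parentheses, and the members above the dashed line. Osteoclast genes are at 6.08, 1.41 and 4.83 times the control mean and dental epithelium genes at 0.643, 0.650 and 0.552 times. Of the 6 mast cell genes 5 passed the filter only through their level in Pkm cKO libraries.

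Genes of other tissues were read for the makeup of the libraries. Of 13 tested mesenchyme genes, 11 were above 0 (median log2 fold change 0.93), with 0 called by edgeR or limma-voom. DESeq2 called 7 higher, against 4.32% of all tested genes, and 8 were higher at an unadjusted p under 0.05, against 9.57%. The transcription factor genes Barx1 and Msx1 had log2 fold changes of 0.82 and 1.07. Of 12 tested genes of dental epithelium, 10 were below 0 (median -0.66) and 1 fell, Odam, with a log2 fold change of -1.23 (edgeR adjusted p 0.0312). At an unadjusted p under 0.05, 6 of the 12 were lower, against 7.9% of all tested genes. In 8 every Pkm cKO library was below every control, against 12.2%. DESeq2 called 4 lower, against 2.7%, and limma-voom 0. In the Pkm cKO libraries, replicates 1 and 3 had the higher median folds of both mesenchyme (1.77 and 1.85, against 1.33 in replicate 2) and immune genes. The summed mesenchyme level had another order, with 39876, 22998 and 18622 CPM in Pkm cKO replicates 1 to 3. By that sum replicate 3 was the lowest, below every control. Most of the sum came from Col1a1 (27446, 16849 and 9097 CPM) and Col1a2 (9622, 4363 and 4340 CPM in Pkm cKO replicates 1 to 3). Other genes of the list had other orders: Twist1 was highest in Pkm cKO replicate 3, Msx1 in replicate 1 and Barx1 in replicate 2. The sum therefore does not rank the replicates by mesenchyme as a whole. The part of tissue makeup in the immune results was not tested. Endothelial genes overlapped between the groups for all 12 tested genes, with 0 called by edgeR, DESeq2 or limma-voom and 0 at an unadjusted p under 0.05.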

How the data were processed

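RNA from 6 libraries was measured by RNA sequencing. The authors deposited whole-number read counts per gene, made with fastp and HISAT2 on build mm39, per the submitters' processing notes. No counting program, strand setting or annotation is named there or in the labels, so reads of overlapping or antisense genes cannot be told apart. This touches 9 members with an overlapping gene model in RefSeq (GRCm38.p6): Cd163, Adgre1, Cx3cr1, Laptm5, Lcp1, Cybb, Ctss, Cd84 and Cpa3. Groups and biological replicate numbers are those of the labels. The p-values measure the spread between them.

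Genes were kept by filterByExpr (0.260 CPM in at least 3 libraries), scaled by TMM and tested two-sided with edgeR's quasi-likelihood test (edgeR 4.0.16, robust, R 4.3.3), with Benjamini-Hochberg adjustment over all 15930 tested genes at 0.05. Log2 fold changes run Pkm cKO minus control. Each SE was obtained from the log2 fold change and the F statistic (their ratio after taking the root of F). Alternatives were other scalings and filters, DESeq2 1.42.0, limma-voom (limma 3.58.1), no robust estimation, the replicate number as a block and leaving out each library. No libraries were duplicates (chi-square per gene of at least 28.2 for any pair).

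The members and lists were chosen with earlier results of these data known. Values in every library are given for the C1q genes, Csf1r, called members, and the 3 most abundant and 2 lowest-p members of each role. Of other lists, the 3 genes with the lowest p and the 2 most abundant may be named. Values of Mrc1, Cd163, Ccr2, Cx3cr1 and Ptprc, of genes at or near 0 reads, and Serping1 were added after seeing them.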

Additional observations from a re-analysis of the deposited data

How the results depend on the processing

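The direction held for 31 of the 33 tested members in every alternative run. The exceptions were Cx3cr1, whose log2 fold change of -0.07 became 0.15 without control replicate 2 and 0.03 without Pkm cKO replicate 3 (range -0.33 to 0.15), and Cybb, whose 0.20 became -0.03 without control replicate 3 and -0.27 without Pkm cKO replicate 3 (range -0.27 to 0.54). The number of calls depended on the method. Against 88 genes and 2 members, edgeR called 55 and 0 with DESeq2 size factors, 75 and 1 with upper-quartile scaling, 518 and 7 with every gene of at least 1 read, and 2 and 0 without robust estimation. DESeq2 called 1118 and 11, and limma-voom 2 and 0. Leaving out single libraries gave 0 to 640 genes and 0 to 4 members: 0 members without any 1 control, 4, 3 and 1 without Pkm cKO replicates 1, 2 and 3. With the replicate block edgeR called 708 genes and 8 members. Same-numbered libraries deviated together at r = 0.235, 0.015 and 0.215. Pkm cKO replicates 1 and 3 correlated best with the control of their own number. Pkm cKO replicate 2 did not, with r = 0.024 for control replicate 3. The labels name no pairing, and whether same-numbered libraries share an origin cannot be told from these values. No member was called lower in any alternative. The number of members with groups that did not overlap was 17 to 27 when a library was left out, an alternative chosen after seeing the data, as was that for the osteoclast list (median 1.60 to 2.53). The difference between resident and other median log2 fold changes stayed between -0.04 and 0.12. Few reads limit Cd163, Ccr2, Cpa3, Ptprc and H2-Aa most.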
